A study of Mus musculus with 8 samples.

Results

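Matrix metalloproteinases (MMPs) other than Mmp9 and Mmp13 were followed in cells from unfractured bone and from bone healing after fracture. The genes were Mmp2, Mmp3, Mmp11, Mmp14, Mmp16, Mmp19 and Mmp23, which are 7 of the 28956 genes in the count tables. They were chosen by name, with earlier results of these data known. The shares of them called below therefore describe this set and do not test it. MMPs are zinc-dependent endopeptidases that cut collagens, proteoglycans and other components of the extracellular matrix, and most are made as inactive proenzymes. In a healing fracture, a cartilage callus forms, is invaded by vessels and is replaced by bone, and MMPs are known for their part in opening the cartilage matrix and remodelling the new bone. The 7 genes fall into secreted enzymes (Mmp2, or gelatinase A, Mmp3, or stromelysin 1, Mmp11, or stromelysin 3, and Mmp19) and enzymes held at a membrane (Mmp14, or MT1-MMP, Mmp16, or MT3-MMP, and Mmp23). Mmp14, with the inhibitor Timp2 as a bridge, activates the proenzyme of Mmp2 at the cell surface.

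The samples were from wild-type C57BL/6 female mice aged 12 weeks. In the Fracture group the bone of the left leg had been broken at 10 weeks by three-point bending and held with an intramedullary nail, and cells were taken on day 14 after fracture. The Control group was not fractured. In both groups haematopoietic cells were depleted with beads against lineage markers, CD45 and CD117, and the remaining cells were profiled by droplet single-cell RNA sequencing, in which each captured transcript is counted once by its unique molecular identifier (UMI). In the library labels each group has 2 numbers, and each number has 2 replicates. These were read as 2 preparations per group, each loaded as 2 libraries, so that the 8 libraries gave n = 2 per group. The labels do not state this reading, and they do not say that the preparations came from separate animals. The p-values below measure the spread between the preparations read in this way.

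The libraries held between 56543151 and 89126291 UMIs. Of 48903 barcodes, 45328 passed the filters on genes and mitochondrial share, and the libraries of a preparation shared between 17 and 46 barcodes. The filters kept 84.5% to 86.2% of the barcodes of a Control library and 99.3% to 99.8% of those of a Fracture library. Over the mitochondrial limit were 371 to 651 barcodes per Control library and 0 to 2 per Fracture library. The median UMI count of the kept cells was 7170 to 8685 in the Control libraries and 10640 to 12708 in the Fracture libraries. The smallest barcode held between 1 and 3 UMIs in the Control tables and between 1929 and 2724 in the Fracture tables, so that the tables of the groups started at different depths. How they had been filtered before deposit is not given. Levels are given as CPM, the UMIs of a gene scaled to a common total of all UMIs, over the cells of a class summed within a preparation.

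After integration of the libraries, clusters were named from marker genes, and the 6 classes compared below held 38052 cells, of which 14129 were Control and 23923 were Fracture cells. Chondrocyte-like cells numbered 2073 and 678 in Control 1 and 2, and 6803 and 7142 in Fracture 1 and 2. Osteoblast-like (OB-like) cells numbered 1691, 1004, 1638 and 1751 in the same order, and cells like bone mesenchymal stromal cells (BMSC-like) numbered 2609, 1724, 1030 and 1100. Fibroblast-like cells numbered 399, 135, 695 and 827, endothelial-like (EC-like) cells 1628, 1252, 1207 and 1402, and mural-like cells 726, 210, 164 and 164. In all the lists of 4 values below, the order is Control 1, Control 2, Fracture 1 and Fracture 2.

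The names were checked against their markers, and the name BMSC-like did not hold in the Fracture preparations. The 11 BMSC markers together reached 34903 and 36202 CPM in the Control BMSC-like cells but 2951 and 3589 CPM in the Fracture BMSC-like cells. The levels of Cxcl12, the chemokine that defines marrow stroma, were 20460, 20930, 1379 and 1622 CPM, those of the leptin receptor Lepr 1071, 1357, 79.9 and 77.6 CPM, and those of Adipoq 2127, 2240, 98.4 and 125 CPM. When clusters were built without integration, 80.8% of the Control BMSC-like cells were again named BMSC-like, but 8.45% of the Fracture cells were, or 180 cells. Of the other Fracture cells, 886 (41.6%) were then named fibroblast-like and 1016 (47.7%) osteoblast-like. In the cells that were BMSC-like both with and without integration, Cxcl12 measured 29539, 25891, 15804 and 16760 CPM, Lepr 1528, 1666, 531 and 491 CPM, and Adipoq 3105, 2784, 1807 and 1664 CPM, so all 3 were again lower in the Fracture cells, by less than in the whole class. Below, the levels and tests of the 7 genes are therefore given in the integrated BMSC-like class and again in these cells, whereas the shares of positive cells, the split by Mmp9 and the gene lists are given for the integrated class alone.

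Other markers also moved between the groups. Fibroblast markers in fibroblast-like cells summed to 58813, 51803, 18883 and 18732 CPM, osteoblast markers in OB-like cells to 107380, 124480, 46467 and 59569 CPM, and mural markers in mural-like cells to 41825, 39858, 20409 and 22283 CPM. In fibroblast-like cells with under 10 Mmp3 UMIs, Prg4 measured 15330, 16950, 2845 and 3453 CPM. Dpt rose there (148, 152, 479 and 461 CPM), as did Mfap5 (268, 411, 914 and 800 CPM), and Clec3b overlapped. Without integration, 82.02% of Control and 89.55% of Fracture fibroblast-like cells kept the name. Of the Control cells 14.8% were then named mural-like, and of the Fracture cells 9.66% chondrocyte-like. Chondrocyte markers in EC-like cells summed to 2520, 1152, 15353 and 15339 CPM, in mural-like cells to 1090, 249.1, 10210 and 5074 CPM, and in fibroblast-like cells to 4143, 2825, 13866 and 12336 CPM. Erythroid markers summed to 904, 309, 3846 and 4103 CPM in EC-like cells and to 100, 224, 5304 and 5650 CPM in mural-like cells. In fibroblast-like cells they summed to 57.8, 257, 1637 and 1930 CPM. BMSC-like cells held 907, 435, 3935 and 3757 CPM of chondrocyte markers and 354, 287, 1415 and 1130 CPM of mural markers. The part of these markers in the results below was not tested. Erythroid-like cells, which should not make these enzymes, served as the comparison for background. RNA outside cells was not measured, and whether the UMIs in these cells came from it or from cells of another type caught with them was not tested. In these cells Mmp2 measured 67.5, 4.10, 97.8 and 73.1 CPM, Mmp14 44.4, 20.3, 71.2 and 54.0 CPM, Mmp16 25.9, 1.79, 33.4 and 21.6 CPM, and Mmp23 25.2, 2.192, 42.2 and 24.4 CPM. Control 1 lay above Control 2 for each of these genes, and its erythroid-like cells held 12654 CPM of osteoblast markers, against 984 CPM in Control 2. The erythroid-like range of Mmp3 was 0.0406 to 0.435 CPM in Control and 1.39 to 1.96 CPM in Fracture preparations. For Mmp11 the ranges were 0.203 to 0.870 and 0.491 to 0.696 CPM, and for Mmp19 0.406 to 2.39 and 0 to 0.696 CPM. Chondrocyte markers in erythroid-like cells summed to 2298, 217, 5816.5 and 4399 CPM. After fracture this was below EC-like, mural-like and fibroblast-like cells and above BMSC-like cells. Their Fracture osteoblast markers, at 6540 and 5169 CPM, were above those of EC-like cells, at 3951 and 4927 CPM. A level above that of erythroid-like cells is thus not shown to be free of background.

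On the mouse genome (GRCm38, gene models of GENCODE M21), the genes lie at Mmp2, chr8:92827291-92853420 on the plus strand, Mmp3, chr9:7445822-7455975 on the plus strand, Mmp14, chr14:54431612-54445364 on the plus strand, and Mmp23, chr4:155650655-155653384 on the minus strand. Mmp11 (chr10:75923222-75936496, minus strand) overlaps Chchd10 on the other strand, Mmp16 (chr4:17852893-18119145, plus strand) overlaps Gm11860, and Mmp19 (chr10:128790910-128800824, plus strand) overlaps Gm47093 and Tmem198b. Whether counting used the strand is not given in the sources used here, so reads of Mmp11, Mmp16 and Mmp19 may hold reads of these partners.

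Windows upstream of the start were looked up for all 7 genes in the RefSeq promoter table (GRCm38.p6), and 4 of them had an entry. The 120 bases before the RefSeq start are shown for Mmp3, Mmp14 and Mmp11, which differ in the classes that hold them. For Mmp11 this start is not that of the GENCODE model given above, and the window lies inside that model. Mmp3 was under 10 CPM in 5 of the 6 Control classes, Mmp14 was at least 57.9 CPM in every class, and Mmp11 was low in most classes. Motifs found are in capitals, which mark the AP-1 motif TGANTCA and the TATA box TATAAA in Mmp3, at chr9:7445702-7445821 on the plus strand, and the Sp1 motif GGGCGG in Mmp14, at chr14:54431478-54431597 on the plus strand, and in Mmp11, at chr10:75932503-75932622 on the minus strand.
Mmp3: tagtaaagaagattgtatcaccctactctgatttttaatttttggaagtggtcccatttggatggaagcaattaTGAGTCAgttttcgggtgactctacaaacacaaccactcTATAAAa
Mmp14: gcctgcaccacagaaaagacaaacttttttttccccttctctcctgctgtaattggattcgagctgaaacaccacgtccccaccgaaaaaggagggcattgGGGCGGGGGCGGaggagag
Mmp11: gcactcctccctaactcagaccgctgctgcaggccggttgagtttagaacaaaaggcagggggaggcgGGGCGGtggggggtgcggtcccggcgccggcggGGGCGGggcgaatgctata
The Runx motif TGTGGT was searched as well, and its match in the Mmp14 window, on the other strand at -114, is left in lower case. The Mmp3 window held the AP-1 motif starting at -46 and the TATA box at -7, and the Mmp14 window held 2 adjoining Sp1 motifs at -19 and -13, all positions counted back from the start. The Mmp11 window also held 2 Sp1 motifs, at -52 and -19, so the low Mmp11 and the high Mmp14 shared this motif. Mmp23 had 2 windows in the table, with neither an AP-1 motif nor a TATA box. Searched on both strands over 300 bases around the start of all 32851 promoters, the AP-1 motif was in 7.81%, the TATA box in 13.6%, the Sp1 motif in 35.7% and the Runx motif in 16.8%. A match describes letters in the window and is not a bound site.

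Mmp2, Mmp14 and Mmp23 were called higher after fracture in all 6 integrated classes, although the call of Mmp23 did not hold in the cells BMSC-like both ways (log2 0.02, adjusted p 0.973), and the other 4 genes were called in some classes only. In EC-like cells the Fracture levels of Mmp23 lay below those of erythroid-like cells, and those of Mmp2 lay close to them. Across all genes of a class, edgeR's quasi-likelihood test was run on the summed counts with Benjamini-Hochberg adjustment over all genes tested, and a change was called at an adjusted p under 0.05. It could test 40 of the 42 pairs of a gene and a class, and called 28 of them higher and 1 lower after fracture, where 15.6% to 52% of all genes were called, depending on the class. The Fracture preparations lay above both Control preparations in CPM in 33 of these 40 pairs and below both in 4, whereas over all pairs tested of any gene and a class the shares were 31% and 41.2%. Its scaling placed a median gene close to 0, which shifted log2 changes over plain CPM by 0.15 in chondrocyte-like, -0.07 in OB-like, 0.19 in BMSC-like, 0.08 in fibroblast-like, 0.12 in EC-like and 0.02 in mural-like cells, and by 0.21 over all stromal cells.

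**Figure D1:**
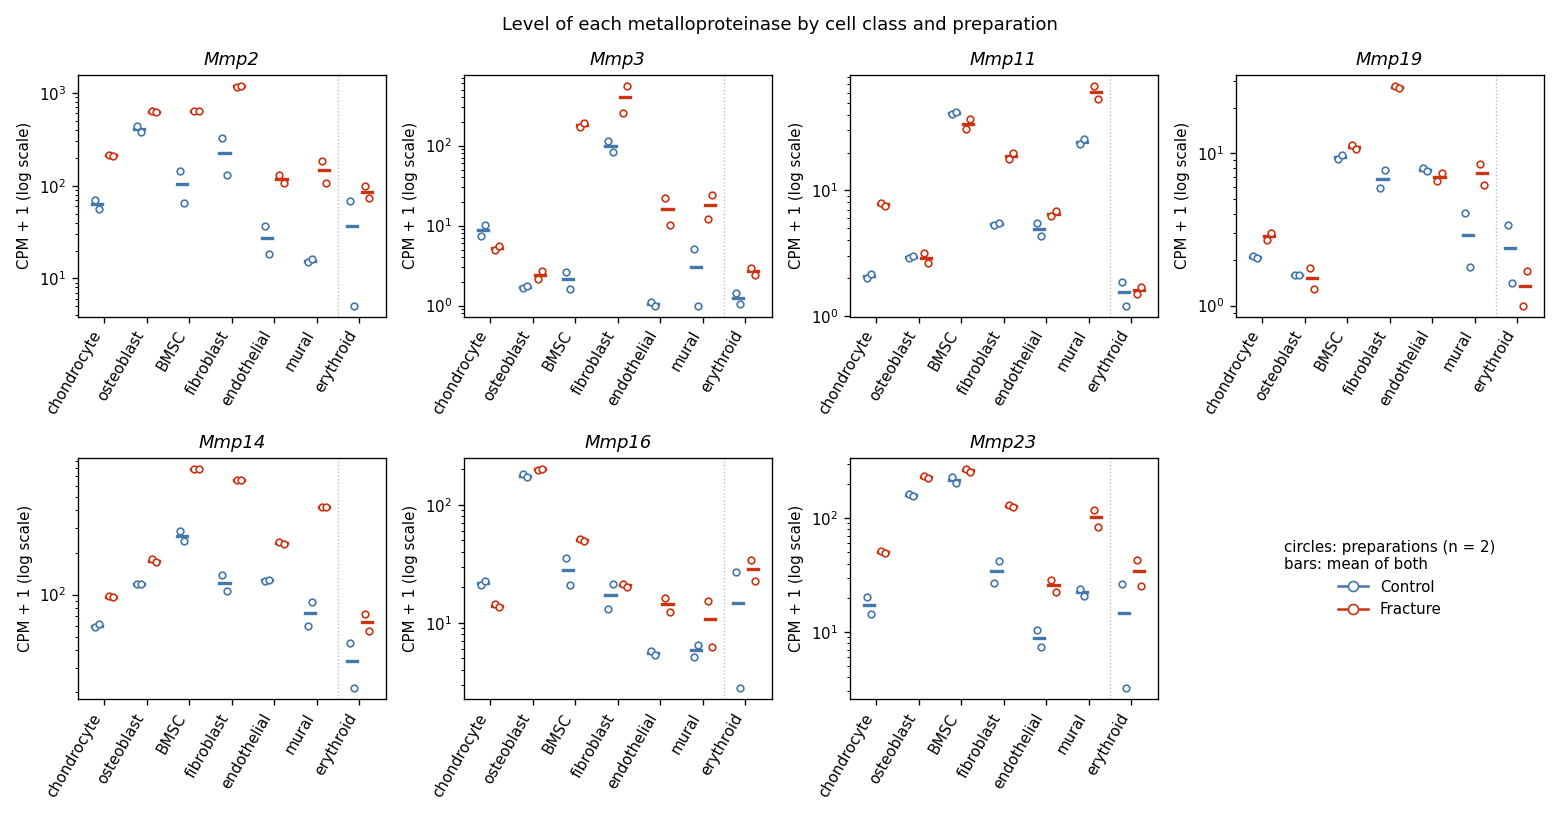
Levels of the 7 genes in CPM on a log axis, by class, with 1 point for each preparation of the Control and Fracture groups. For Mmp2 and Mmp14 the Fracture points lie above the Control points in all 6 classes, and for Mmp16 they lie below in chondrocyte-like cells.

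Mmp2, which cuts denatured collagen and type IV collagen, measured 322, 130, 1168 and 1191 CPM in fibroblast-like cells. In OB-like cells it measured 442, 375, 635 and 615 CPM. Both Fracture preparations were higher in each class, but the step was 5.45-fold in fibroblast-like cells (log2 2.44 ± 0.46 SE, adjusted p 0.0328 by edgeR) and 1.46-fold in OB-like cells (log2 0.55 ± 0.08, adjusted p 0.0207). Without Control 1 the log2 change in fibroblast-like cells was 3.31. In chondrocyte-like cells the levels were 69.0, 54.7, 215 and 207 CPM, a 3.79-fold rise (log2 1.92 ± 0.12, adjusted p 0.00226). The groups did not overlap in any of these classes. In mural-like cells they were 13.9, 15.03, 186 and 105 CPM (log2 3.36 ± 0.32, adjusted p 0.00453), and in EC-like cells 35.6, 17.5, 129 and 106 CPM (log2 2.26 ± 0.36, adjusted p 0.0140, and log2 2.86 without Control 1). The Fracture levels in EC-like cells, and the Fracture 2 level in mural-like cells, were close to those of erythroid-like cells given above. In Control bone OB-like cells had the highest Mmp2 level and did not overlap with any other class, whereas after fracture fibroblast-like cells did, followed by BMSC-like and OB-like cells at 643 and 625 CPM on average.

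In the integrated BMSC-like class Mmp2 measured 143, 63.6, 640 and 645 CPM, and the groups did not overlap (log2 2.83 ± 0.40, adjusted p 0.00596, and log2 3.54 without Control 1). In the cells that were BMSC-like both ways, which numbered 2036 and 1467 in Control and 180 in all in Fracture preparations, it measured 66.0, 38.1, 225 and 222 CPM (log2 2.17, adjusted p 0.0360). The groups again did not overlap, at lower levels on both sides. Fracture cells that were named fibroblast-like without integration carried 931 and 969 CPM, and those named osteoblast-like carried 377 and 362 CPM.

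Mmp3, which cuts proteoglycans and can activate other proenzymes, had its highest Control level in fibroblast-like cells. There it measured 113, 83.2, 256 and 558 CPM, with the Fracture preparations higher and far apart from each other (log2 2.12 ± 0.43, adjusted p 0.0372). Without Fracture 2 the log2 change was 1.45 and was not called (adjusted p 0.187). In the cells that were fibroblast-like both with and without integration the change was not called (log2 2.57, adjusted p 0.117). In the integrated BMSC-like class it measured 1.63, 0.631, 172 and 189 CPM (log2 7.47 ± 0.45, adjusted p 0.00127, and log2 8.34 without Control 1). In the cells BMSC-like both ways, however, only 5, 8, 1 and 1 UMIs were found, too few to test, so the rise in the integrated class lay outside the cells that kept the name. Fracture cells of the class that were named fibroblast-like without integration held 347 and 397 CPM.

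Few cells held most of the Mmp3 transcripts. In the Fracture BMSC-like class, 14 of 1030 cells (1.36%) with at least 10 Mmp3 UMIs held 94.4% of the Mmp3 UMIs of Fracture 1, and 26 of 1100 cells (2.36%) held 97.7% of those of Fracture 2. In these cells the fibroblast markers summed to 12440 and 13080 CPM and the BMSC markers to 5664 and 7891 CPM, whereas in the remaining cells of the class the fibroblast markers summed to 2906 and 2802 CPM and the BMSC markers to 2906 and 3459 CPM. Lepr, Cxcl12 and Adipoq went against the BMSC sum. Cells with at least 10 Mmp3 UMIs held 6.09 and 0 CPM of Lepr, 871 and 1024 of Cxcl12, and 0 and 103 of Adipoq. The remaining cells held 81.1 and 79.95 CPM of Lepr, 1388 and 1640 of Cxcl12, and 100 and 125 of Adipoq. In fibroblast-like cells, 39 Fracture 1 cells (5.61%) held 80.9% and 76 Fracture 2 cells (9.19%) held 92.9% of the UMIs. Control fibroblast-like cells had 7 and 1 such cells, with 59.1% and 77.5% of the UMIs. The highest count in a single cell was 728 UMIs.

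Elsewhere Mmp3 was low, and in Fracture OB-like cells it was close to the erythroid-like levels given above. EC-like cells gave 0.113, 0, 21.05 and 9.05 CPM (log2 7.83 ± 0.95, adjusted p 0.00877), where the Control value rests on 1 UMI in all against 358 in the Fracture cells, a ratio of 246 with a 95% exact counting interval of 43.8 to 9726. Such intervals cover counting error alone. The fitted log2 change was 7.01 without Control 2 and 7.13 without Fracture 1, where it was not called (adjusted p 0.0961), and without Control 1 no Control UMI was left. Chondrocyte-like cells gave 6.35, 9.32, 3.94 and 4.51 CPM, with both Fracture values lower, but the change was not called (log2 -0.72 ± 0.22, adjusted p 0.0677); it was called without Control 1 (log2 -0.99, adjusted p 0.00109) and without Control 2 (log2 -0.42, adjusted p 0.0270). OB-like cells gave 0.676, 0.735, 1.16 and 1.72 CPM (adjusted p 0.113, but 0.0305 without Control 2), and mural-like cells 4.16, 0, 11.0 and 22.9 CPM (adjusted p 0.0700). In mural-like cells the change was called without Control 2, at log2 2.02. It was also called without Control 1, but the Control preparation then left held no Mmp3 UMI, so no fold is given.

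Mmp11, which unlike most MMPs is activated inside the cell, rose in 3 classes and was not called in the other 3. In chondrocyte-like cells it measured 0.997, 1.13, 6.91 and 6.56 CPM, a 7.15-fold rise (log2 2.84 ± 0.13, adjusted p 0.00140). In fibroblast-like cells it measured 4.25, 4.50, 16.8 and 18.8 CPM (log2 2.11 ± 0.23, adjusted p 0.0110), and in mural-like cells 22.2, 24.5, 67.2 and 52.4 CPM (log2 1.38 ± 0.21, adjusted p 0.0115). Groups did not overlap in these 3 classes. In BMSC-like cells, the class with the highest Control level, it measured 39.8, 41.3, 29.97 and 36.0 CPM, which was lower in both Fracture preparations and not called (log2 -0.11 ± 0.13, adjusted p 0.513). In the cells BMSC-like both ways the direction turned, with 46.5, 45.1, 91.0 and 79.8 CPM (log2 0.96, adjusted p 0.0421). Those Fracture cells of the class that were fibroblast-like without integration held 25.3 and 35.7 CPM. OB-like cells gave 1.90, 2.01, 2.15 and 1.63 CPM and overlapped, but in the OB-like cells of the clusters built without integration Mmp11 was called higher (log2 0.50, adjusted p 0.0467). EC-like cells gave 4.52, 3.32, 5.20 and 5.81 CPM, with both Fracture values higher, and were called only without Control 1 (adjusted p 0.0212, against 0.112 with all preparations).

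Mmp19 was low in every class, and its Control levels in chondrocyte-like and OB-like cells lay within the erythroid-like Control range given above. It was 4.90, 6.75, 26.8 and 25.8 CPM in fibroblast-like cells, where it rose 4.995-fold (log2 2.32 ± 0.20, adjusted p 0.00737). In chondrocyte-like cells it was 1.13, 1.05, 1.71 and 2.00 CPM and was called higher (log2 0.91 ± 0.20, adjusted p 0.0316), a call lost without Control 1 (adjusted p 0.0541), without Fracture 1 (0.157), without Fracture 2 (0.2315) and with DESeq2 (0.0595). BMSC-like cells gave 8.17, 8.83, 10.3 and 9.70 CPM, where the Fracture values were higher and the test fell short (log2 0.43 ± 0.13, adjusted p 0.0512); without Control 2 it was called (log2 0.48, adjusted p 0.0243). In the cells BMSC-like both ways it was 9.68, 10.5, 16.5 and 13.8 CPM and was not called (log2 0.64, adjusted p 0.310). EC-like cells gave 7.003, 6.64, 5.55 and 6.40 CPM (adjusted p 0.791) and OB-like cells 0.579, 0.588, 0.771 and 0.280 CPM (adjusted p 0.762). In mural-like cells, at 3.05, 0.791, 7.54 and 5.24 CPM, counts were too low for the test.

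Mmp14, a membrane collagenase, was measured in all 6 classes and was called higher in each. In fibroblast-like cells it was 136, 106, 663 and 656 CPM, a 5.74-fold rise (log2 2.52 ± 0.18, adjusted p 0.00619). In mural-like cells it was 58.3, 87.8, 424 and 420 CPM, a 5.93-fold rise (log2 2.57 ± 0.22, adjusted p 0.00404). The rise was smaller in EC-like cells (123, 127, 239 and 231 CPM; log2 1.02 ± 0.06, adjusted p 0.00512), in chondrocyte-like cells (57.9, 60.3, 96.0 and 95.8 CPM; log2 0.85 ± 0.06, adjusted p 0.00245) and in OB-like cells (118, 118, 179 and 169 CPM; log2 0.49 ± 0.06, adjusted p 0.0147). The groups did not overlap in any of these classes. In erythroid-like cells Mmp14 measured 44.4, 20.3, 71.2 and 54.0 CPM, also higher in both Fracture preparations. Of the 6 classes, chondrocyte-like cells lay closest to these levels after fracture. The integrated BMSC-like class gave 285, 239, 796 and 793 CPM (log2 1.79 ± 0.11, adjusted p 0.00131). In the cells BMSC-like both ways the values were 225, 183, 380 and 365 CPM (log2 0.93, adjusted p 0.0420), so that the rise was present there and smaller.

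Mmp16 was the only gene of the 7 that was called lower in a class in the main results, whereas Mmp3 in chondrocyte-like cells was called lower in some alternatives only. In chondrocyte-like cells it measured 19.9, 21.7, 13.4 and 12.7 CPM, a 1.44-fold fall (log2 -0.52 ± 0.08, adjusted p 0.0138). In the Fracture preparations these levels were below those in erythroid-like cells. Its highest level was in OB-like cells, at 181, 170, 197 and 202 CPM, where the Fracture values were higher but the change was not called (log2 0.12 ± 0.07, adjusted p 0.266). BMSC-like cells gave 34.7, 20.03, 50.1 and 48.8 CPM (log2 1.05 ± 0.27, adjusted p 0.0284), and the cells BMSC-like both ways gave 6.19, 5.99, 8.27 and 19.9 CPM (log2 1.33, adjusted p 0.157). EC-like cells were called higher at 4.74, 4.30, 15.4 and 11.5 CPM (log2 1.68 ± 0.20, adjusted p 0.00873), but each Fracture value there was below that of the erythroid-like cells of the same preparation. Fibroblast-like cells, at 12.1, 20.2, 20.3 and 19.2 CPM, overlapped (adjusted p 0.245, but 0.0282 without Control 2), and mural-like cells had too few UMIs for the test.

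Mmp23 was called higher in all 6 classes. In OB-like cells it measured 164, 155, 234 and 224 CPM (log2 0.46 ± 0.06, adjusted p 0.0148), and in chondrocyte-like cells 19.3, 13.5, 50.4 and 48.6 CPM (log2 1.75 ± 0.18, adjusted p 0.00572). In fibroblast-like cells it was 26.1, 41.2, 130 and 124 CPM (log2 2.04 ± 0.21, adjusted p 0.0103), and in mural-like cells 22.8, 19.8, 118 and 83.2 CPM (log2 2.24 ± 0.23, adjusted p 0.00477). Fracture values were above both Control values in each. EC-like cells gave 9.49, 6.40, 27.9 and 21.7 CPM (log2 1.75 ± 0.23, adjusted p 0.0104), below the erythroid-like level of the same Fracture preparations. In the integrated BMSC-like class the values were 230, 202, 272 and 256 CPM (log2 0.48 ± 0.09, adjusted p 0.0116), but in the cells BMSC-like both ways they were 254, 220, 209 and 248 CPM and overlapped (log2 0.02, adjusted p 0.973).

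**Figure D2:**
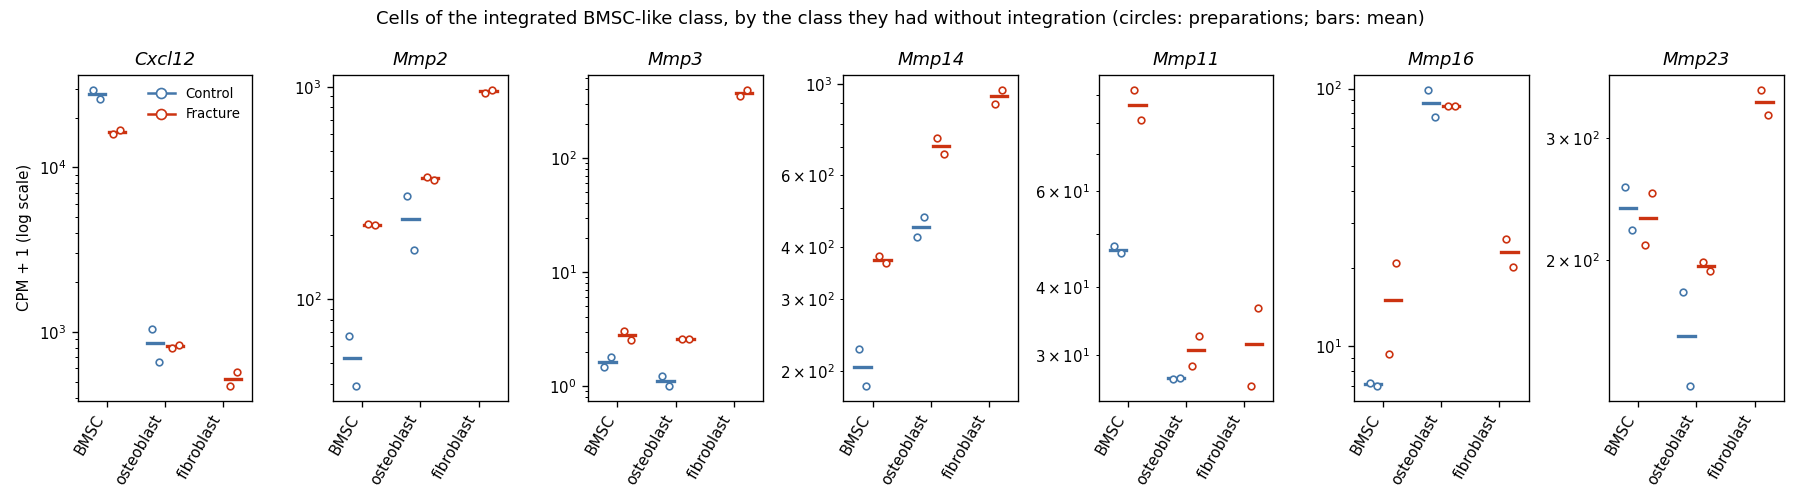
Levels in CPM on a log axis of Cxcl12, Mmp2, Mmp3, Mmp14, Mmp11, Mmp16 and Mmp23 in the integrated BMSC-like class. Cells are split by the name they took without integration, with 1 point for each preparation, and Mmp19 is not shown. Mmp3 in Fracture cells lies at 347 and 397 CPM in those named fibroblast-like and at 1.59 and 1.61 CPM in those named osteoblast-like.

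By class, the share of the 7 genes called was set beside the share of all genes called. In fibroblast-like cells 6 of 7 were called, all higher, against 15.6% of all genes, and their median log2 change was 2.12 against -0.00 for all genes tested. In OB-like cells 3 of 7 were called, all higher, against 16.8% of all genes, with medians of 0.46 and -0.01. In chondrocyte-like cells 5 were called higher and 1 lower, against 36.9% of all genes, with medians of 0.91 and -0.01. The largest shares of all genes were found in BMSC-like cells, where 5 of 7 were called against 52% of all genes, with medians of 1.05 and -0.03. In EC-like cells 5 of 7 were called against 36.2% (medians 1.68 and 0.01), and in mural-like cells 4 of the 5 tested were called against 25.8% (medians 2.57 and 0.01).

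Fewer genes were called with either Fracture preparation left out. Without Fracture 1 or without Fracture 2, none of the 7 genes was called in OB-like, fibroblast-like or EC-like cells, 2 were called in chondrocyte-like cells and 3 in BMSC-like cells. In mural-like cells 2 were called without Fracture 1 and 4 without Fracture 2. No called change turned its direction when any preparation was left out. Fitted changes whose calls were lost could stay close to the full fit, as for Mmp14 in fibroblast-like cells, at log2 2.52 and 2.53 without either Fracture preparation, and in OB-like cells, at log2 0.48 and 0.49. The genes still called without either Fracture preparation were Mmp2 and Mmp11 in chondrocyte-like cells, Mmp2, Mmp3 and Mmp14 in BMSC-like cells, and Mmp2 and Mmp14 in mural-like cells.

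**Figure D3:**
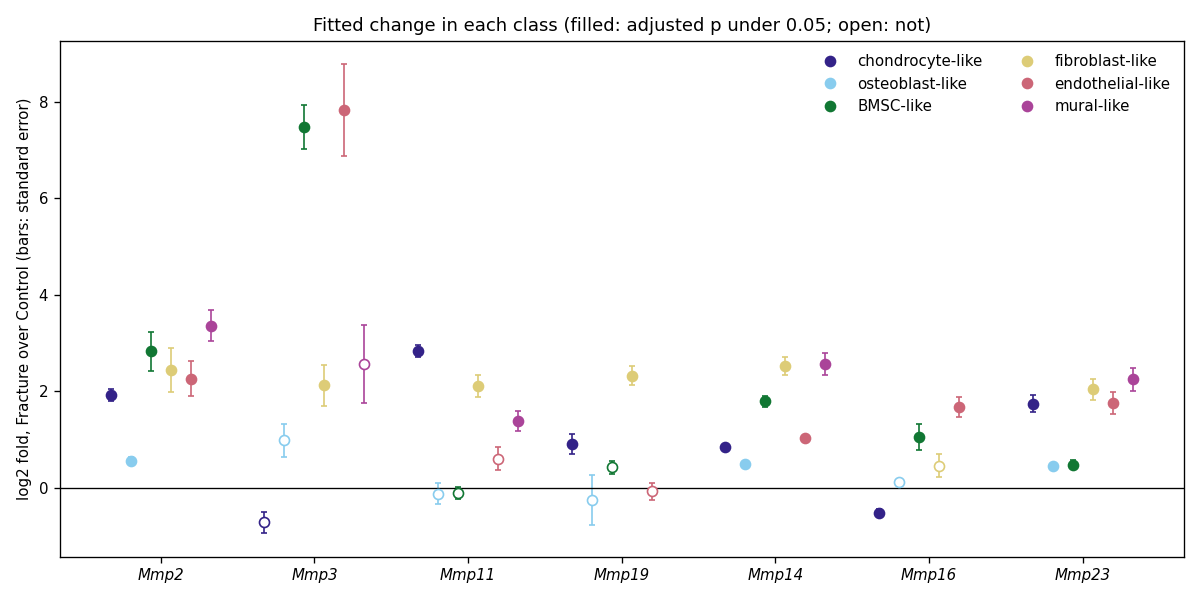
Fitted log2 change of Fracture over Control for the 7 genes in each class, with bars of 1 SE, from edgeR. The changes of Mmp2, Mmp14 and Mmp23 lie above 0 in all 6 classes, and that of Mmp16 lies below 0 in chondrocyte-like cells.

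Next, it was tested whether the change in a class differed from the mean change of the other 5 classes, in a fit over the 24 sums of 6 classes and 4 preparations with the preparation as a block. Mmp16 and Mmp19, too low to test in mural-like cells alone, were kept in this fit. Their mural-like changes are thus among the 42 tests and in the means of the other classes. Of 42 tests, 23 passed. OB-like cells had the smaller change for 5 genes, against 22% of all genes: the difference was -2.10 (SE 0.24, adjusted p 1.16e-05) for Mmp2, -1.26 for Mmp14, -1.20 for Mmp23, -1.48 for Mmp11 and -0.64 for Mmp16, all on the log2 scale. Fibroblast-like cells had the larger change for 4 genes, against 13.7% of all genes, with 1.90 (SE 0.32, adjusted p 0.000550) for Mmp19, 1.24 for Mmp11, 1.18 for Mmp14 and 0.84 for Mmp23. Without Control 1, the differences of Mmp19, Mmp11 and Mmp23 in fibroblast-like cells were no longer called, at adjusted p-values of 0.252, 0.241 and 0.591. Without Control 2, that of Mmp11 was also lost (adjusted p 0.0546).

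In chondrocyte-like cells 4 genes passed against 32.3% of all genes, namely Mmp11 upward (2.03, SE 0.22, adjusted p 1.84e-06) and Mmp3 (-4.85), Mmp16 (-1.43) and Mmp14 (-0.87) downward. That of Mmp3 rests on low counts and was -7.68 without Control 1, where EC-like and mural-like cells had no Control UMI left, and -4.24 without Control 2. In mural-like cells the changes of Mmp2 (1.51), Mmp14 (1.33) and Mmp23 (0.95) were larger, against 17.4% of all genes. In EC-like cells 4 passed against 20.2%, with Mmp3 (5.40) and Mmp16 (1.20) above and Mmp19 (-1.03) and Mmp14 (-0.64) below the other classes. In BMSC-like cells 3 passed against 33.3%, with Mmp2 (0.72) above and Mmp11 (-1.50) and Mmp23 (-1.21) below. Without integration 4 of the 23 differences were not called, namely those of Mmp2 in BMSC-like (0.20, adjusted p 0.8275) and mural-like cells (0.95, adjusted p 0.0770), Mmp3 in chondrocyte-like cells (-3.21, adjusted p 0.0963) and Mmp19 in EC-like cells (-0.96, adjusted p 0.0524). That of Mmp11 in EC-like cells was then called (-1.09, adjusted p 0.00641), and that of Mmp14 in BMSC-like cells turned from 0.26, which was not called, to -0.72, which was. Without Fracture 1, 14 of the 42 tests passed, and without Fracture 2, 18 did. Without Control 1 the tests of Mmp2 and Mmp23 in chondrocyte-like, Mmp14 and Mmp16 in BMSC-like and Mmp2 in fibroblast-like cells passed as well. The difference of Mmp3 in EC-like cells was lost without either Control preparation, and that of Mmp2 in mural-like cells was 0.86 without Control 1 (adjusted p 0.341).

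Chondrocyte-like cells comprised a cluster led by Col10a1, the collagen of hypertrophic cartilage, and a cluster led by Serpina1a. The Col10a1 cluster held 1108 and 383 Control and 5615 and 5892 Fracture cells, whereas the Serpina1a cluster held 965, 295, 1188 and 1250 cells. Within the Col10a1 cluster 6 of 7 genes were called, against 29.8% of all genes, in the same directions as in the whole class. Mmp2 rose 4.47-fold there, from 64.0 and 44.3 CPM to 233 and 223 CPM (adjusted p 0.00415), and Mmp16 fell from 17.4 and 22.7 CPM to 12.5 and 11.8 CPM (adjusted p 0.0392). Within the Serpina1a cluster 3 of 7 were called, against 14.2% of all genes, and these were Mmp2 (75.2, 68.0, 124 and 121 CPM; log2 0.88 ± 0.06), Mmp14 (68.6, 67.9, 82.4 and 79.9 CPM; log2 0.36 ± 0.06) and Mmp23 (16.9, 12.4, 34.7 and 35.9 CPM; log2 1.37 ± 0.15). Mmp16, at 22.9, 20.4, 17.9 and 17.5 CPM, was lower in both Fracture preparations and not called (adjusted p 0.246).

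A second clustering of the stromal cells separated cells like diaphyseal (dpMSC-like) and metaphyseal (mpMSC-like) mesenchymal stromal cells. The dpMSC-like cluster held 1717, 1244, 387 and 430 cells, and its BMSC markers fell from 56559 and 49165 CPM to 4518 and 6062 CPM, so the limit on the name given above holds here too. Among the mpMSC markers, Postn measured 8.74, 1.65, 2046 and 2009 CPM there and Aspn 4.07, 1.76, 1290 and 1252 CPM. Both exceeded the Fracture mpMSC-like levels, at 870 and 842 CPM for Postn and 82.4 and 78.2 CPM for Aspn. Ncam1 also rose, whereas Hey1, Limch1, Tnc, Cdh11 and Pdgfrb were lower after fracture. In the dpMSC-like cluster 6 of 7 genes were called, all higher, against 52.2% of all genes. Mmp2 measured 32.4, 24.3, 907 and 978 CPM, Mmp3 0.598, 1.06, 502 and 992 CPM, and Mmp16 5.27, 5.06, 23.2 and 22.0 CPM. Mmp14 rose from 173 and 152 CPM to 794 and 848 CPM, while Mmp11 overlapped at 43.6, 41.8, 33.4 and 45.7 CPM. The 17 and 33 cells with at least 10 Mmp3 UMIs held 96.4% and 99.2% of the Mmp3 UMIs of the Fracture cells in this cluster. The cluster was drawn from the BMSC-like, OB-like and fibroblast-like cells together and is not nested in the integrated BMSC-like class: these cells held 1984 and 4481 Mmp3 UMIs, against 1626 and 2076 in the cells of that class with at least 10.

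In mpMSC-like cells, which numbered 863, 487, 464 and 504, 2 of the 6 genes tested were called, against 24.1% of all genes. Their BMSC markers summed to 9101, 9951, 2390 and 2311 CPM. Mmp14 measured 423, 415, 812 and 743 CPM (log2 1.03 ± 0.08, adjusted p 0.00356) and Mmp2 286, 146, 454 and 445 CPM (log2 1.20 ± 0.30, adjusted p 0.0437). The groups did not overlap for either gene, and both Control values of Mmp2 differed widely. Without Control 1 the number called was 4, with Mmp16 and Mmp23 added, without Control 2 it was 3, without Fracture 1 it was 1 and without Fracture 2 it was 0. Mmp3 was too low to test, at 2 Control and 15 Fracture UMIs (ratio 9.76, 95% exact counting interval 2.27 to 87.96). Mmp11 (37.2, 40.4, 35.8 and 37.2 CPM) and Mmp19 (5.10, 4.89, 6.28 and 4.19 CPM) overlapped.

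The septoclast marker Mmp9 divides the BMSC-like class further, and levels were compared after thinning each cell to 3000 UMIs, which left out 882 of 4333 Control cells and 1 of 2130 Fracture cells. Cells with an Mmp9 UMI numbered 99, 63, 254 and 238. In these cells Mmp14 measured 899, 947, 1164 and 1170 CPM, against 243, 201, 692 and 740 CPM in the cells without one. Mmp14 was thus higher in the Mmp9-positive cells of each preparation, and Mmp11 was too, at 74.1, 74.1, 47.2 and 57.4 CPM against 38.9, 41.8, 30.5 and 33.7 CPM. Mmp23 was lower in them, at 125, 127, 155 and 161 CPM against 240, 211, 297 and 262 CPM. Mmp2 was higher in the Mmp9-positive cells of both Control preparations (239 and 122 CPM against 111 and 50.9 CPM) and lower in those of both Fracture preparations (382 and 437 CPM against 682 and 674 CPM). These splits were not tested.

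The share of cells with a UMI of a gene, after each cell had been thinned to 1000 UMIs, followed the levels in most classes. With 2 preparations per group, an exact permutation test of a share cannot go below p = 0.333. The share of Mmp2-positive cells was 15.7% ± 7.4 (SD, n = 2) in Control and 60.5% ± 3.1 in Fracture fibroblast-like cells, 6.90% ± 3.8 and 40.2% ± 1.1 in BMSC-like cells, and 5.10% ± 0.12 and 17.8% ± 0.13 in chondrocyte-like cells. In erythroid-like cells it was 1.59% ± 1.6 and 5.31% ± 1.2, so that the share of 8.21% ± 0.11 in Fracture EC-like cells was close to it. Without thinning, the Mmp2 shares were 35.7% and 97.3% in fibroblast-like, 25.1% and 91.2% in BMSC-like, 42.0% and 73.7% in chondrocyte-like and 5.65% and 22.4% in erythroid-like cells. Median UMI counts per erythroid-like cell were 2839, 8412, 7365 and 7320, and per EC-like cell 4096, 5338, 7514 and 8130.

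Mmp14-positive cells, thinned, made up 10.2% ± 0.35 of Control and 43.8% ± 1.4 of Fracture fibroblast-like cells, 20.1% ± 2.4 and 47.0% ± 0.72 of BMSC-like cells, and 7.27% ± 2.5 and 29.3% ± 0 of mural-like cells. The share in erythroid-like cells was 3.34% ± 0.17 and 5.54% ± 1.5, below the Fracture share in each of these classes. Mmp3-positive cells were rarer, at 4.56% ± 3.3 and 11.2% ± 0.95 of fibroblast-like cells and 0.0487% ± 0.013 and 2.20% ± 0.36 of BMSC-like cells. Mmp16-positive EC-like cells, at 0.274% ± 0.16 and 1.22% ± 0.088, lay on average below the erythroid-like shares of 0.516% ± 0.49 and 2.28% ± 0.78. Unthinned Mmp14 shares were 36.4% and 94.7% in fibroblast-like, 62.7% and 94.8% in BMSC-like, 27.2% and 84.5% in mural-like and 17.5% and 23.3% in erythroid-like cells. Unthinned Mmp3 shares were 12.7% and 25.8% in fibroblast-like and 0.337% and 5.41% in BMSC-like cells, and unthinned Mmp16 shares 1.22% and 6.21% in EC-like and 3.03% and 11.4% in erythroid-like cells.

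**Figure D4:**
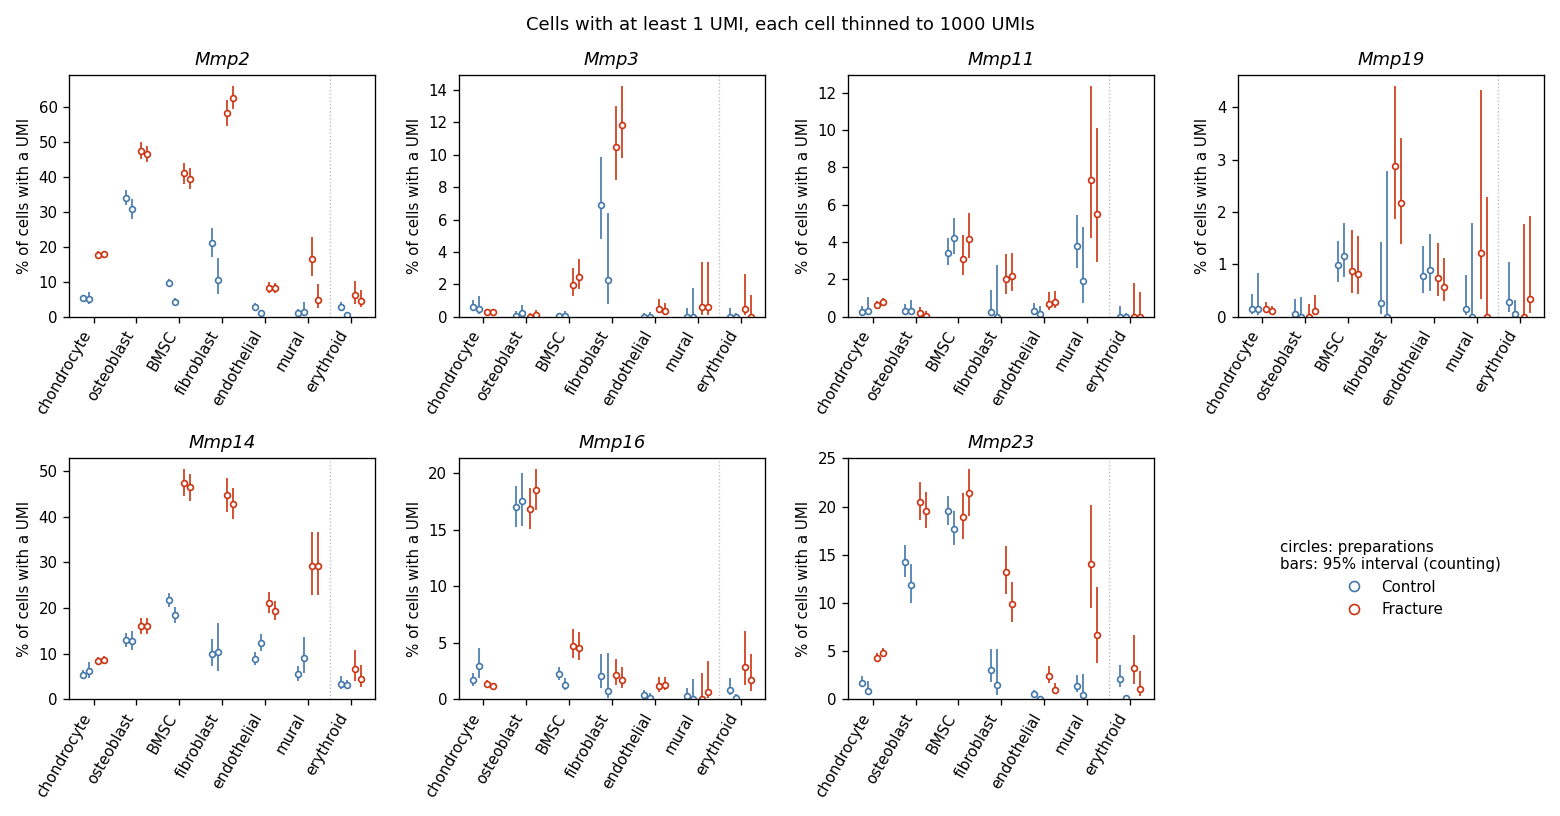
Percent of cells with at least 1 UMI of each gene after thinning to 1000 UMIs per cell, by class, with 1 point for each preparation, and the erythroid-like cells for comparison. Fracture fibroblast-like cells average 60.5% for Mmp2 and 43.8% for Mmp14.

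Over all cells of the 6 classes together, a change can come from more or fewer cells of a class or from more or less RNA per cell, and the summed counts cannot tell these apart. Here 5 of 7 genes were called, against 39.8% of all genes. Mmp3 measured 6.52, 4.43, 31.5 and 51.5 CPM (log2 3.12 ± 0.36, adjusted p 0.00862), Mmp2 210, 169, 348 and 343 CPM (log2 1.07 ± 0.14, adjusted p 0.0112) and Mmp14 125, 133, 205 and 204 CPM (log2 0.87 ± 0.06, adjusted p 0.00459). Mmp19 was also called higher (2.88, 3.58, 4.00 and 4.17 CPM; adjusted p 0.0380), but as a mean of the CPM of each cell it was lower after fracture (log2 ratio -0.27), and in the cells of the same class with and without integration neither Mmp19 (adjusted p 0.125) nor Mmp3 (0.0511) was called. Mmp16 fell from 74.3 and 72.4 CPM to 41.0 and 41.0 CPM (log2 -0.63 ± 0.07, adjusted p 0.00736). Mmp11 (9.04, 11.5, 9.02 and 9.10 CPM) and Mmp23 (103, 107, 94.3 and 89.5 CPM) were not called, and their plain CPM was lower after fracture on average while the fitted change was slightly above 0, at log2 0.03 and 0.02. Without Fracture 1 or without Fracture 2, Mmp3 alone was called.

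The share of each class in the transcripts differed between the groups, as did its share of the cells, of which OB-like cells made up 18.5%, 20.1%, 14.2% and 14.1% and fibroblast-like cells 4.37%, 2.698%, 6.02% and 6.68%. OB-like cells held 71.0% and 80.8% of the Mmp2 UMIs in Control and 24.1% and 24.1% in Fracture preparations, while chondrocyte-like cells held 10.7%, 7.13%, 39.98% and 38.5%. Fibroblast-like cells held 5.09% and 1.83% of Mmp2 UMIs in Control and 18.9% and 21.2% in Fracture preparations. For Mmp16, OB-like cells held the most in every preparation, at 82.1%, 85.5%, 63.7% and 66.5%. For Mmp11, the BMSC-like share went from 73.3% and 81.5% to 24.2% and 27.9%, and the chondrocyte-like share from 3.61% and 2.18% to 49.5% and 46.1%. Thus, most Mmp11 UMIs of Control bone were in BMSC-like cells and the largest part after fracture was in chondrocyte-like cells, which held 58.97% and 57.66% of the Fracture stromal cells.

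**Figure D5:**
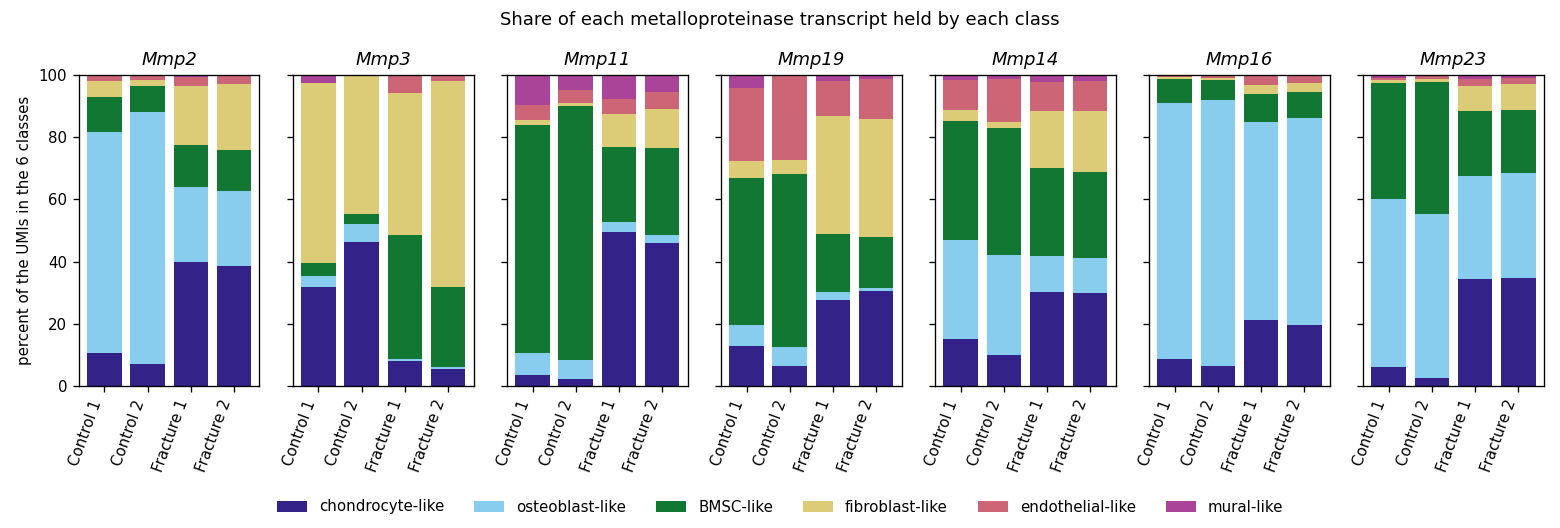
Percent of the stromal UMIs of each gene that fell in each of the 6 classes, 1 bar for each preparation. OB-like cells hold 71.0% and 80.8% of Mmp2 UMIs in the Control and 24.1% in both Fracture preparations.

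Holding the share of UMIs of each class at its Control mean turned the sign of the comparison for 3 genes. On the log2 scale of plain CPM, Mmp16 went from -0.84 as measured to 0.22, Mmp11 from -0.18 to 0.23 and Mmp23 from -0.19 to 0.56. With the shares held, the recomputed level of Mmp16 was thus not lower after fracture. This is a value without a test. It rests on the integrated classes, among them the BMSC-like class, whose name did not hold in the Fracture preparations. Within chondrocyte-like cells Mmp16 was called lower. Mmp2 went from 0.87 to 1.26, Mmp14 from 0.66 to 1.22, Mmp3 from 2.92 to 3.22 and Mmp19 from 0.34 to 0.42, all in the direction they had before.

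Of 16 other MMPs listed, 15 were in the tables, and 3 to 9 were abundant enough to test in a class. The counts of this list and of the lists that follow stand beside calls of 52% of all genes in BMSC-like, 36.9% in chondrocyte-like, 16.8% in OB-like, 36.2% in EC-like, 15.6% in fibroblast-like and 25.8% in mural-like cells. In BMSC-like cells 9 were tested and 5 were called higher. These were Mmp9 (428, 271, 1091 and 835 CPM), the collagenase Mmp13 (2760, 2352, 4882 and 4851 CPM), Mmp10 (0.131, 0.315, 11.3 and 15.6 CPM), Mmp8 (1.504, 0.867, 2.60 and 3.56 CPM) and Mmp12 (0, 0, 2.00 and 1.602 CPM). In chondrocyte-like cells 8 were tested, with Mmp13 and Mmp28 called higher and Mmp17 and Mmp25 lower. Mmp13 there measured 279, 294, 1159 and 1244 CPM (log2 2.22 ± 0.08, adjusted p 0.00119). Of 7 tested in OB-like cells, Mmp9 (1.71, 0.637, 30.3 and 23.8 CPM) and Mmp13 (91.2, 57.1, 162 and 146 CPM) were called higher. Of 8 tested in EC-like cells, Mmp13 (32.9, 46.6, 367 and 378 CPM), Mmp9 (2.03, 3.32, 26.9 and 17.7 CPM) and Mmp8 (0.678, 0.984, 1.70 and 2.28 CPM) were. In fibroblast-like cells 3 were tested and Mmp9 was called higher (0.980, 1.499, 5.05 and 4.53 CPM), and in mural-like cells 4 were tested and Mmp13 was (63.3, 149, 1074 and 434 CPM). In erythroid-like cells Mmp9 measured 3.92, 0.731, 19.6 and 10.8 CPM, Mmp13 44.4, 12.4, 152 and 154 CPM, and Mmp8 5.22, 0.487, 3.93 and 13.6 CPM. The Fracture levels of Mmp9 in fibroblast-like cells and of Mmp8 in EC-like and BMSC-like cells thus lay below those of erythroid-like cells of the same preparation, and those of Mmp13 in OB-like cells lay close to them. Mmp9 in EC-like cells lay above but near them. Mmp13 in EC-like and mural-like cells was also above them. So were the chondrocyte markers, at 15353 and 15339 CPM in EC-like, 10210 and 5074 in mural-like and 5816.5 and 4399 in erythroid-like Fracture cells. The part of those markers in these calls was not tested.

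Among the 6 inhibitors, Timp1, a secreted inhibitor of many MMPs, was called higher in all 6 classes. It measured 222, 185, 1103 and 1008 CPM in OB-like cells (log2 2.31 ± 0.09, adjusted p 0.00241) and 18.3, 18.2, 430 and 642 CPM in mural-like cells (log2 4.89 ± 0.25, adjusted p 0.00284). Timp4 was called lower in the 4 classes where it was tested, from 441 and 273 CPM to 5.48 and 10.5 CPM in mural-like cells (log2 -5.45 ± 0.40, adjusted p 0.00336). Timp3, which binds to the matrix, was called higher in OB-like and BMSC-like cells and lower in fibroblast-like, EC-like and mural-like cells. Timp2, the partner of Mmp14 at the cell surface, was called higher in OB-like, BMSC-like, fibroblast-like and mural-like cells, with 468, 400, 808 and 820 CPM in BMSC-like cells. Reck, a membrane-anchored inhibitor, was called lower in BMSC-like cells (41.5, 41.1, 25.8 and 24.6 CPM) and fibroblast-like cells (43.1, 34.5, 19.1 and 20.2 CPM). A2m, a protease trap, was called higher in chondrocyte-like and mural-like cells and lower in BMSC-like cells.

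Of 9 genes for the activation and uptake of MMPs, 7 or 8 were tested in each class. In BMSC-like cells Plau, Plat, Pcsk6, Bsg and Pcsk5 were called higher. Plau, the urokinase that makes plasmin, measured 0.131, 0.315, 4.99 and 4.98 CPM there. In chondrocyte-like cells Plau, Pcsk5, Pcsk6 and Bsg were called higher and Furin, which removes the propeptide of membrane MMPs, lower (144, 168, 78.3 and 86.8 CPM; log2 -0.77 ± 0.11, adjusted p 0.0112). In fibroblast-like cells the convertases Pcsk5 and Pcsk6 were called lower, and none was called higher. In OB-like cells the uptake receptor Lrp1 was called higher. In EC-like cells Lrp1, Pcsk6 and Plau were called higher and Pcsk5 lower, and in mural-like cells Bsg, Pcsk6, Plat and Plau were called higher.

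The genes most like each enzyme were found by the Pearson correlation of log2(CPM + 1) over the 24 sums, which share libraries and preparations, and they are given as a description. For Mmp2 the closest was Col5a2 (r = 0.94), followed by Kdelr1 and Tfg. For Mmp3 it was Dpt (0.93), followed by Ssc5d and Mfap5, and for Mmp11 it was Pdgfrb (0.94), followed by S100a11 and Trip6. Mmp14 was closest to Cxcl5 (0.90), followed by Atp6v0d1 and Ext1, and Mmp16 to Col24a1 (0.93), followed by Arfip2 and Bet1. Mmp19 was closest to Ctsb (0.89), followed by Itgb3 and Cdc42ep5, and Mmp23 to Gpr153 (0.93), followed by Fbn2 and Cdh11.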

How the data were processed

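UMI counts per gene and barcode were deposited by the authors as 8 tables of raw counts, 1 for each 10x Genomics Chromium 3' library. The submitters' processing notes name bcl2fastq 2.19.1.403, UMI-tools 1.0.0, STAR 2.7.3a, Subread with featureCounts 1.6.4, and mm10. The study's methods instead name STARsolo, within the same STAR release, with GENCODE M23, so which route made these tables was not settled. The use of strand is not given in the sources used here. The Control tables held barcodes of very few UMIs and the Fracture tables did not.

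Barcodes with 500 to 6000 genes and at most 25% mitochondrial UMIs were kept, and 26357 genes seen in at least 3 cells were used. Libraries were integrated by canonical correlation in Seurat 5.3.0 (30 dimensions, 12 components, resolution 0.1) and clusters were named from marker lists. Clustering left out 136 genes, namely MMPs, the genes of the lists below, cell cycle genes and Fabp5. Doublets called by scrublet at an expected 6% (507 cells, 1.12%) were kept in the main results. Counts were summed by class and preparation and tested with edgeR 4.0.16 (R 4.3.3, quasi-likelihood, TMM, filterByExpr) with Benjamini-Hochberg adjustment over all genes tested at 0.05. The study's own methods for such sums are not stated, and DESeq2 1.42.0 was an alternative. Shares of positive cells were taken after thinning to 1000 UMIs. The test was checked on simulated counts with 200 changed genes.

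The MMPs and gene lists were chosen with earlier results of these data known. By rule, all 7 MMPs were named in every class, genes of the lists where called, and the 3 genes most like each MMP among genes of at least 20 CPM on average.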

Additional observations from a re-analysis of the deposited data

Results flagged for a closer look

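The change after fracture differed between a class and the mean of the other 5 classes, by the edgeR test of that difference with adjustment over all genes, in 23 of 42 pairs of a gene and a class, where the same tests called 13.7% to 33.3% of all genes, depending on the class. Values are differences of log2 changes.

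Mmp11 gave 2.03 in chondrocyte-like (adjusted p 1.84e-06), -1.48 in osteoblast-like (0.000259), -1.50 in BMSC-like (6.58e-07) and 1.24 in fibroblast-like cells (0.0113). Mmp14 gave -0.87 in chondrocyte-like (2.44e-05), -1.26 in osteoblast-like (1.61e-06), 1.18 in fibroblast-like (9.73e-06), -0.64 in endothelial-like (0.000938) and 1.33 in mural-like cells (5.81e-06). Mmp16 gave -1.43 in chondrocyte-like (0.0001003), -0.64 in osteoblast-like (0.0375) and 1.20 in endothelial-like cells (0.0154), the last at Fracture levels below those of erythroid-like cells. Mmp2 gave -2.10 in osteoblast-like (1.16e-05), 0.72 in BMSC-like (0.0310) and 1.51 in mural-like cells (0.0198). Mmp23 gave -1.20 in osteoblast-like (1.17e-05), -1.21 in BMSC-like (3.84e-06), 0.84 in fibroblast-like (0.00846) and 0.95 in mural-like cells (0.00749). Mmp3 gave -4.85 in chondrocyte-like (6.63e-06) and 5.40 in endothelial-like cells (0.0458), where the Control cells held 1 UMI. Mmp19 gave 1.90 in fibroblast-like (0.000550) and -1.03 in endothelial-like cells (0.00805).

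Of 14 groups of 4 libraries, 1 for each gene and group, none had a library that stood apart from the others.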

How the results depend on the processing

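Of the 60 fitted changes of a gene in a class, 2 turned direction and were called on at least 1 side, both where clusters were rebuilt: Mmp11 in osteoblast-like cells without integration (0.50), and Mmp11 in BMSC-like cells without integration (0.95) and in the cells of the same class with and without integration (0.96, an alternative added once the data had been seen). The difference of Mmp14 in BMSC-like cells from the other classes turned to -0.72 without integration. The Mmp19 share turned to a Fracture excess of 2.43 points without thinning and 0.101 points when thinned to 3000 UMIs in BMSC-like cells, and of 1.48 points without thinning in endothelial-like cells. Over all stromal cells, Mmp19 was -0.27 as a mean over cells, and Mmp16 was 0.22 with class shares held. The causes were not tested.

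The number of the 7 genes called ranged, with each preparation left out in turn, from 2 to 7 in chondrocyte-like, 0 to 4 in osteoblast-like, 3 to 6 in BMSC-like, 0 to 7 in fibroblast-like, 0 to 6 in endothelial-like and 2 to 5 in mural-like cells, from 1 to 5 over all stromal cells, 5 to 6 in dpMSC-like and 0 to 4 in mpMSC-like cells. The differences between classes ranged from 14 to 23 called of 42. The number was 5 in osteoblast-like cells with each library as a sample, 3 in BMSC-like cells without integration and 3 in cells of the same class both ways, 3 over all stromal cells of the same class both ways, and 1 in mpMSC-like cells with no scaling factors and 1 with DESeq2. The lone preparation left by a leave-out was assumed to vary like the other group.

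Preparation numbers did not pair the samples: the deviations of same-numbered preparations correlated at 0.02 to 0.07, under 0.1. With the replicate block, 56 of 60 fitted changes kept their call, none turned, and 4 lost it, namely Mmp19 in chondrocyte-like cells (adjusted p 0.0804) and over all stromal cells (0.0506), and Mmp2 (0.0599) and Mmp3 (0.0906) in fibroblast-like cells, so that 4 genes were called in fibroblast-like cells and 5 in chondrocyte-like cells. Of the 60, the call and direction held for 57 with DESeq2, 59 with RLE factors, 56 with no scaling factors and 59 with called doublets removed. Rebuilt clusters were not run for dpMSC-like and mpMSC-like cells, and the alternatives were not run for the Col10a1 and Serpina1a clusters. Some changes that were called on neither side also crossed 0. Counts were too low to test Mmp16 and Mmp19 in mural-like and Mmp3 in mpMSC-like cells.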
